A study of Rattus norvegicus with 24 samples.

Results

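The choroid plexus epithelium genes were examined array by array in dorsal hippocampus (HIP). The set was a given list of 37 genes of this epithelium. A member was measured where a probe set of the array carried its symbol and no other, which gave 36 members a probe set of their own. The exception was Slco1a5, an organic anion transporter, which only shares a probe set with another gene and so has no value here. Of the 36, 33 passed the filter on low signals, as did 16849 of all 29489 probe sets. It asked that 3 or more of the 6 groups have a mean over 60 fluorescence units, which is 5.91 in log2. Lbp, Krt18 and Steap1 did not pass. Cldn2, F5, Prlr, Col8a1 and Abca4 passed through exactly 3 groups, so for these 5 the filter itself depended on the groups in which they were high.

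Gene expression was measured in 24 Wistar rats, with 1 Affymetrix GeneChip Rat Gene 2.0 ST array per rat and 4 rats in each of 6 groups. CUS-DMF rats had 8 weeks of chronic unpredictable stress (CUS) and were given dimethyl fumarate (DMF), an activator of the antioxidant factor Nrf2, by mouth, CUS-VEH rats had the same stress and vehicle, and VEH rats had vehicle and no stress, with females and males of each. The vehicle was the food in which DMF was mixed, and DMF was given only to stressed rats. All rats had been through behavioural tests, and RNA came from dissected tissue, so every cell type in it adds to a signal. The arrays of a group are biological replicates by the labels, and rats are named here by group and number (male VEH 3 is the array of rat 3). All signals are log2 values.

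The choroid plexus lies within the ventricles of the brain. Its epithelium, a sheet of cells joined by tight junctions, secretes cerebrospinal fluid by moving ions and water from blood to ventricle and makes carrier proteins and growth factors for that fluid. Transthyretin (Ttr), a carrier of thyroxine and retinol, is its best known product. The plexus of the lateral ventricle runs along the hippocampus, so a dissected piece of hippocampus can hold more or less of it. In bulk tissue, fewer cells of a type and less RNA per cell cannot be told apart.

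The tissue label was checked with a list of hippocampal neuron genes, of which 19 of 26 passed the filter. Their mean signal lay between 9.38 and 9.53 in every array, and 0 of the 19 had a called slope on Ttr. Among the 3 of them most like Ttr, Wfs1 averaged 11.5, Fibcd1 averaged 9.63 and Cpne7 averaged 7.92 over the 24 arrays. Array medians lay between 6.18 and 6.23. The label of sex was read from the 2 of 29489 probe sets that separated all 12 arrays labelled female from all 12 labelled male. A probe set named Uty had 8.26 to 8.48 in arrays labelled female and 7.84 to 8.13 in those labelled male. Uty is a gene of the Y chromosome, for which this direction would be the wrong one, but RefSeq lists Kdm6a and Utx, names of its X-linked relative, among its synonyms, so which of them was measured cannot be told. A probe set shared by Eif2s3 of the X chromosome and Eif2s3y of the Y chromosome had 10.51 to 10.75 in arrays labelled female and 9.95 to 10.26 in those labelled male. The X-linked Ddx3x, whose ranges overlapped, had 9.82 to 10.12 in arrays labelled female and 9.54 to 9.87 in those labelled male. The sexes are used here as labelled.

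Promoters are shown for Ttr, for Kl, the member with the steepest slope on Ttr, and for Ace and Abca4, chosen because they hold a motif searched for. The motifs are those of transcription factors known in this epithelium. The windows are from RefSeq (rat assembly GRCr8), from 250 bases before to 50 bases after the start of the gene, and 28 of the 37 members have one. Searched on both strands were TAATCC, the core bound by Otx factors, and TGTTTAC, a forkhead core. Capitals mark a TAATCC match, written as GGATTA where it lies on the other strand.
Ttr (chr18:12218508-12218807, + strand): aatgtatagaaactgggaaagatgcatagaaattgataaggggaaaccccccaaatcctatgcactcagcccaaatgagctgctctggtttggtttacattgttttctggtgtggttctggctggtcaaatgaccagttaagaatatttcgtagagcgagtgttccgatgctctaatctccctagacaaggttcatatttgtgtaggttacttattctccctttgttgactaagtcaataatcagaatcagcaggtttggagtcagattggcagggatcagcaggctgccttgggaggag
Kl (chr12:5325753-5326052, + strand): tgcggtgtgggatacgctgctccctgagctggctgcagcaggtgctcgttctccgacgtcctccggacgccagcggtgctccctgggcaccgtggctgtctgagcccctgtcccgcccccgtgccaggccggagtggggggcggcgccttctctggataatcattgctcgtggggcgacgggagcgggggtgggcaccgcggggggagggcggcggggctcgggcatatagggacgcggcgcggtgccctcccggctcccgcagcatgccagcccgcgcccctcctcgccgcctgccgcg
Ace (chr10:91409879-91410178, + strand): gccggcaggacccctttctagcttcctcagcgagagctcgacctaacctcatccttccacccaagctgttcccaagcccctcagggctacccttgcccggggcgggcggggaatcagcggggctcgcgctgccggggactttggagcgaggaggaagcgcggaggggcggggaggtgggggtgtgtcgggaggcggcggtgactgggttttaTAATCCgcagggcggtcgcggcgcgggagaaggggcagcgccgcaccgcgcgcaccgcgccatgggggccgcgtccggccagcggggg
Abca4 (chr2:212849235-212849534, + strand): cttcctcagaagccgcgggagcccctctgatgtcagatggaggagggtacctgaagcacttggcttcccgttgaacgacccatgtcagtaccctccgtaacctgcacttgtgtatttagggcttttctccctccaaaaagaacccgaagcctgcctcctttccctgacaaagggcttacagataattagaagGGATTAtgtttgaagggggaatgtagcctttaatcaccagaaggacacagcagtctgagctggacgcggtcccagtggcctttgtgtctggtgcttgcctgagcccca

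TAATCC lay in the windows of 2 of the 28 members, Ace (first base at position -38 from the start, + strand) and Abca4 (position -58, opposite strand), and in 7.17% of 33469 rat windows. TGTTTAC lay in 1 of the 28, Cab39l (position -8, opposite strand), and in 3.78% of all windows. The windows of Ttr and Kl held neither. Both shares among the members are near those of all genes, and a match is a description of letters only.

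Ttr itself differed widely from rat to rat. Its signal was 11.91, 11.54, 7.92 and 12.09 in female CUS-DMF rats, 11.85, 11.58, 8.14 and 12.09 in female CUS-VEH rats, and 11.81, 12.47, 11.36 and 7.59 in female VEH rats. It was 6.13, 6.81, 7.01 and 7.19 in male CUS-DMF rats, 7.10, 7.48, 7.09 and 8.30 in male CUS-VEH rats, and 7.81, 7.82, 10.93 and 7.72 in male VEH rats. The signals fell into separate ranges, with 10 arrays at 10.93 or more and 14 at 8.30 or less. The 10 were 9 of the 12 female arrays and 1 male array, male VEH 3. Each female group held 1 low array (CUS-DMF 3, CUS-VEH 3 and VEH 4), and these 3 and male VEH 3 were the 4 arrays whose Ttr lay more than 2 log2 units from the median of their group.

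Kl, which encodes klotho, a coreceptor for fibroblast growth factors, followed the same arrays. Its signal was 9.36, 9.01, 6.23 and 9.39 in female CUS-DMF rats, 9.59, 9.48, 5.98 and 10.05 in female CUS-VEH rats, and 8.99, 10.21, 8.92 and 6.06 in female VEH rats. In male CUS-DMF rats it was 5.70, 5.96, 6.04 and 5.88, in male CUS-VEH rats 6.05, 6.01, 5.88 and 6.32, and in male VEH rats 6.04, 6.05, 8.32 and 6.0. The same 3 female arrays were low, and the same male array was high.

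Kcnj13 encodes an inwardly rectifying potassium channel of the apical membrane. It had signals of 8.49, 8.33, 5.88 and 8.95 in female CUS-DMF rats, 9.09, 8.79, 5.89 and 9.46 in female CUS-VEH rats, and 8.17, 9.72, 8.58 and 6.03 in female VEH rats. In male CUS-DMF rats it had 5.52, 5.44, 5.39 and 5.74, in male CUS-VEH rats 5.67, 5.82, 5.65 and 6.19, and in male VEH rats 5.86, 5.85, 7.76 and 5.54. The highest male array was again VEH 3.

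Clic6, a chloride intracellular channel family member, had signals of 8.58, 8.35, 5.81 and 8.55 in female CUS-DMF rats, 8.35, 8.54, 5.75 and 9.21 in female CUS-VEH rats, and 7.97, 9.25, 8.00 and 5.96 in female VEH rats. In male CUS-DMF rats it had 5.63, 5.90, 5.28 and 5.70, in male CUS-VEH rats 5.75, 5.86, 5.91 and 5.72, and in male VEH rats 6.06, 6.06, 7.65 and 5.75. Its 3 low female arrays lay within the range of the 11 males other than VEH 3.

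Sostdc1, a secreted antagonist of bone morphogenetic protein and Wnt signalling, had signals of 8.30, 8.36, 6.73 and 8.79 in female CUS-DMF rats, 8.71, 8.48, 6.68 and 8.97 in female CUS-VEH rats, and 8.79, 9.59, 8.33 and 6.26 in female VEH rats. In male CUS-DMF rats it had 6.39, 6.62, 6.69 and 6.70, in male CUS-VEH rats 6.53, 6.54, 6.74 and 6.48, and in male VEH rats 6.69, 6.53, 7.71 and 6.39. Its lowest signal of all 24 was that of a female, VEH 4.

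Slc4a5, a sodium bicarbonate cotransporter, had signals of 7.76, 7.25, 5.81 and 7.92 in female CUS-DMF rats, 8.25, 8.06, 5.83 and 8.52 in female CUS-VEH rats, and 8.21, 8.89, 7.88 and 6.31 in female VEH rats. In male CUS-DMF rats it had 5.78, 6.13, 5.85 and 5.71, in male CUS-VEH rats 5.96, 5.80, 5.87 and 6.22, and in male VEH rats 5.87, 6.08, 7.27 and 5.97. Here male VEH 3, at 7.27, lay just above female CUS-DMF 2, at 7.25.

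F5, coagulation factor V, had signals of 7.66, 7.33, 5.54 and 7.73 in female CUS-DMF rats, 7.60, 7.65, 5.78 and 7.87 in female CUS-VEH rats, and 7.22, 8.34, 7.07 and 5.75 in female VEH rats. In male CUS-DMF rats it had 5.57, 5.47, 5.60 and 5.70, in male CUS-VEH rats 5.83, 5.62, 5.78 and 5.88, and in male VEH rats 5.65, 5.68, 6.80 and 5.45. These 6 genes, with the steepest slopes on Ttr, thus had the same 10 highest arrays as Ttr.

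**Figure D1:**
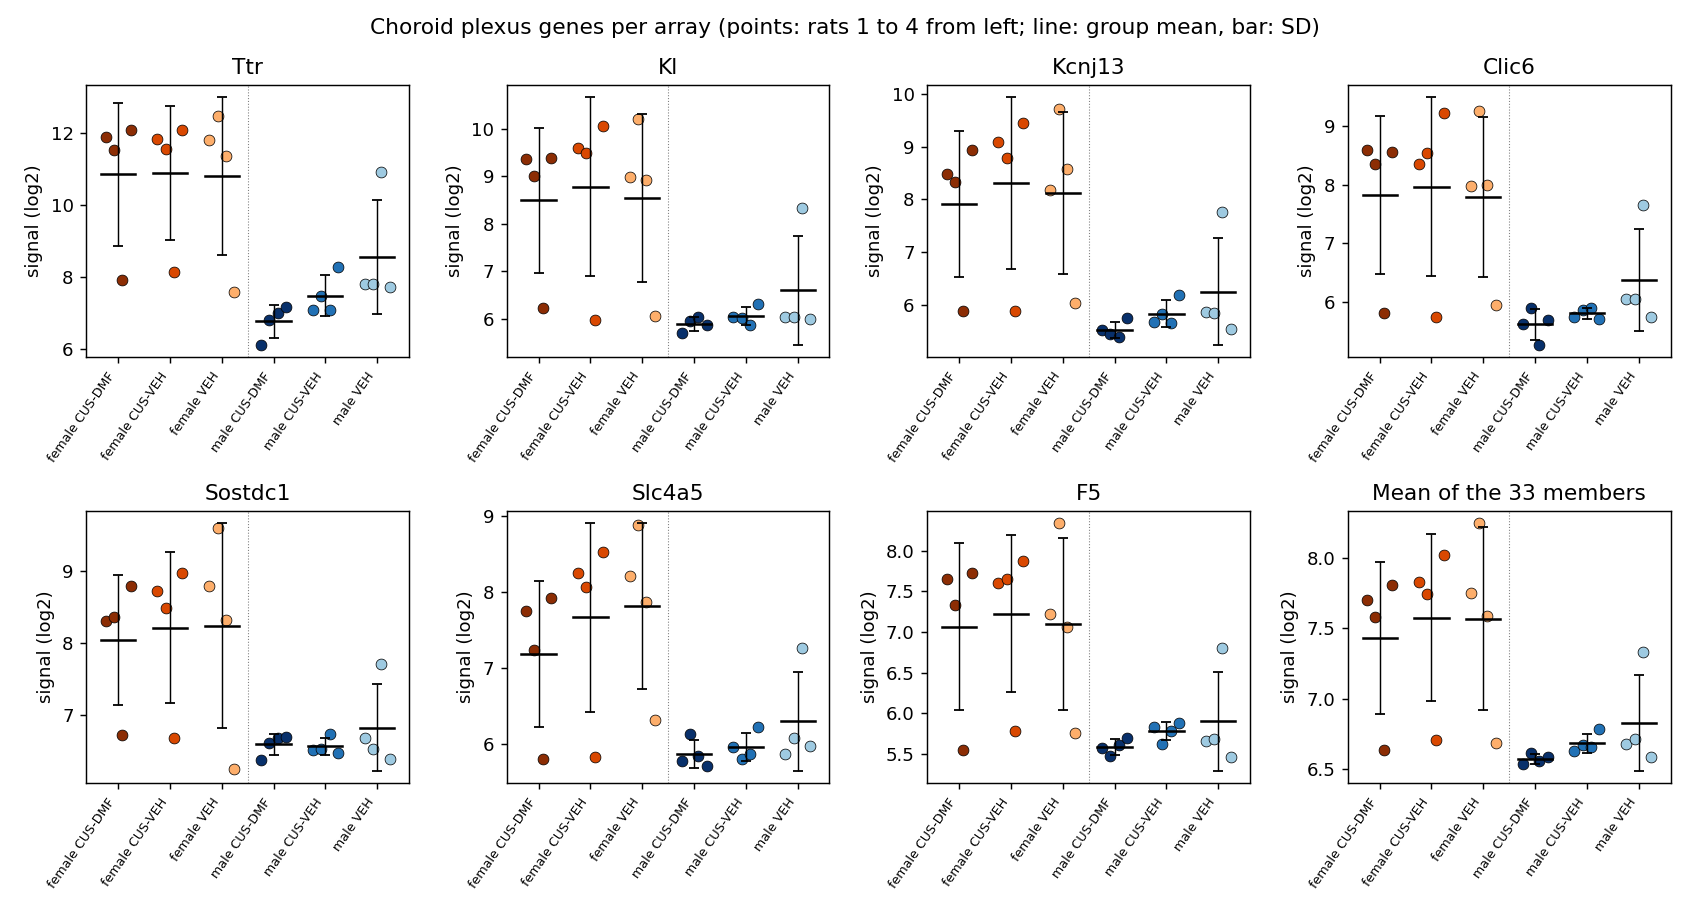
Signal (log2) of Ttr, the 6 members with the steepest slopes on Ttr and the mean of the 33 members that passed the filter, by group; each point is 1 array (rats 1 to 4 from left), the line is the group mean and the bar 1 SD (n = 4). In each female group 1 array lies low, and male VEH 3 lies above the other 11 male arrays.

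The mean over the 33 members, Ttr included, had the same 10 highest arrays as Ttr, though not in the same order. It ran from 6.53 to 8.25, and the lowest of these 10 was at 7.33 against 6.78 in the next array. Of the 32 members other than Ttr, 18 had exactly the 10 highest arrays of Ttr, and all 18 were among those called below. Over all 16848 probe sets tested, these 18 members included, 37 had them. Cldn2, F5, Prlr and Abca4, which passed the filter only through the female groups, are among the 18. Female VEH 2 was the highest array of 22 of the 32 members.

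**Figure D2:**
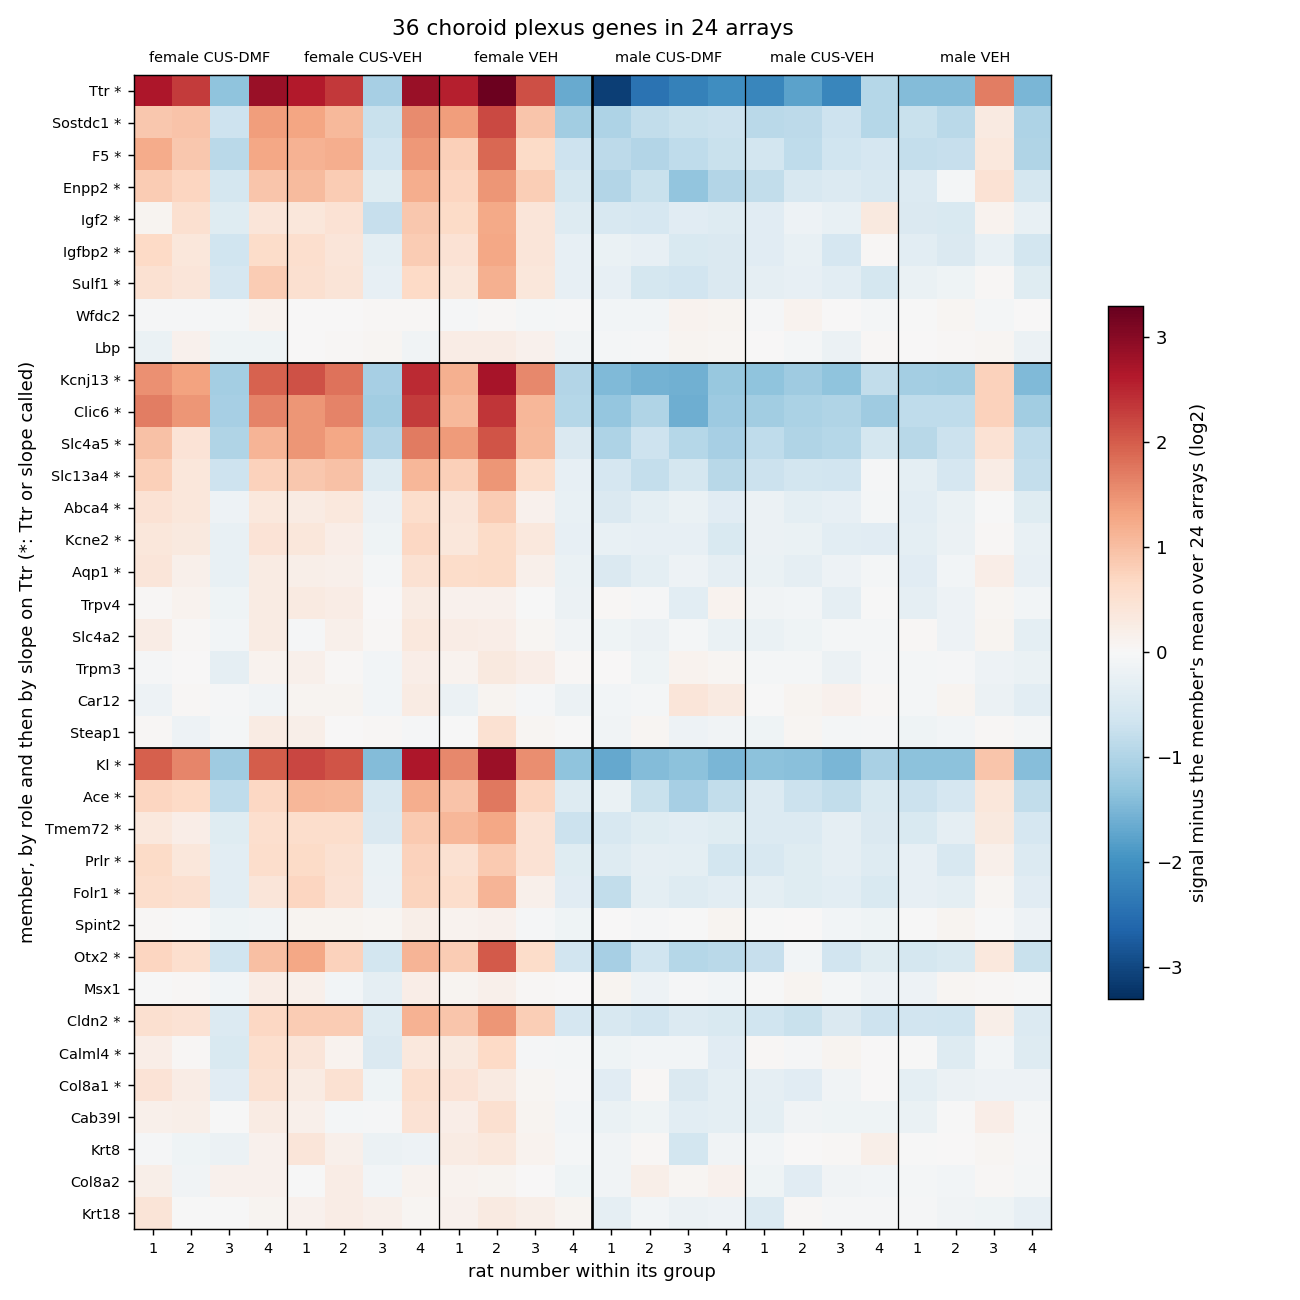
Signal of the 36 members (rows, by role and then by slope on Ttr) in the 24 arrays (columns, by group and rat number), as the difference from the member's mean over 24 arrays (log2); a star marks Ttr and the 22 members with a called slope. The high columns are the same 10 in most starred rows, and those of Wfdc2 and Spint2 are pale throughout.

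To ask which members varied with Ttr beyond the groups, the slope of each member on the Ttr signal was fitted with group as a factor (limma, adjusted over 16848 probe sets). Of the 32 members tested, 22 had a positive slope at an adjusted p under 0.05, against 0.475% of all probe sets tested (80 of 16848). The filter bears on this count too. Cldn2, F5, Prlr, Col8a1 and Abca4 passed it only through the 3 female groups, which hold 9 of the 10 arrays high in Ttr, and all 5 are among the 22. All 32 slopes were above 0. The median slope was 0.21 over the members and -0.00091 over all probe sets. Slopes of the 22 ran from 0.12 to 0.81, and their signals spanned 1.01 to 4.51 over the arrays. Slopes of the other 10 ran from 0.0064 to 0.08, with spans of 0.216 to 1.01.

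Among the secreted carriers, hormones and enzymes, 6 of 7 members tested followed Ttr. Sostdc1 had a slope of 0.51 ± 0.04 (SE) and F5 had one of 0.46 ± 0.03. Enpp2, or autotaxin, which makes lysophosphatidic acid, had signals of 9.79 to 12.55 and a slope of 0.34. Igf2, a growth factor of the cerebrospinal fluid, had a slope of 0.26 (signals 7.14 to 9.15), its binding protein Igfbp2 had 0.24 (6.32 to 8.24) and Sulf1, an enzyme that removes sulfate from heparan sulfate, had 0.21 (5.66 to 7.48). Wfdc2, a secreted protein with a whey acidic protein domain, did not pass (slope 0.0064 ± 0.01, signals 6.21 to 6.42). Lbp, which binds lipopolysaccharide, stayed between 5.29 and 5.76, below the filter.

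Among the membrane transporters, channels and carbonic anhydrase, 7 of 11 followed Ttr. Kcnj13 had a slope of 0.71 ± 0.04, Clic6 had 0.63 ± 0.05 and Slc4a5 had 0.50 ± 0.03. Slc13a4, a sodium sulfate cotransporter, had a slope of 0.32 (signals 6.85 to 9.22). Lower slopes were those of Abca4, a retinoid transporter (0.15, signals 5.45 to 6.76), Kcne2, a subunit of potassium channels (0.14, 6.10 to 7.28), and Aqp1, the apical water channel (0.14, 6.46 to 7.56). The 4 that did not pass were Trpv4, a cation channel (0.07, 5.66 to 6.32), Slc4a2, an anion exchanger (0.06, 6.61 to 7.28), Trpm3, a cation channel (0.05, 8.46 to 9.07), and Car12, a membrane carbonic anhydrase (0.03, 8.60 to 9.36). Steap1, of a family of metal reductases, had signals of 4.77 to 5.45, below the filter.

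Of the receptors and other membrane proteins, 5 of 6 followed Ttr. Kl had the steepest slope, 0.81 ± 0.04. Ace, angiotensin-converting enzyme, had 0.37 (signals 6.35 to 9.18), Tmem72, a transmembrane protein, had 0.29 (6.11 to 8.09), Prlr, the prolactin receptor, had 0.22 (5.43 to 6.90), and Folr1, a folate receptor, had 0.21 (5.48 to 7.39). Spint2, a membrane-bound inhibitor of serine proteases, had a slope of 0.03 and signals of 6.96 to 7.31.

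Of the 2 transcription factors, Otx2, a homeobox factor needed for this epithelium in the mouse, had a called slope of 0.40 (signals 5.88 to 9.0), and the homeobox factor Msx1 had a slope of 0.05 that did not pass (6.48 to 7.03). Of the junction, keratin, matrix and cytoplasmic proteins, 3 of 6 followed Ttr. These were Cldn2, the claudin of leaky tight junctions (0.31, signals 5.24 to 7.43), Calml4, a calmodulin-like protein (0.14, 6.0 to 7.17), and Col8a1, a chain of collagen VIII (0.12, 5.43 to 6.44). Cab39l, an adaptor of protein kinases, had a slope of 0.08 (8.35 to 9.23), the keratin Krt8 had 0.06 (5.68 to 6.69) and Col8a2, the other collagen VIII chain, had 0.03 (5.79 to 6.41), none of them called. Krt18, the partner of Krt8, lay between 5.04 and 5.89, below the filter.

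Some of these members stood near the threshold in limma's slope test. Col8a1 was called with an adjusted p of 0.0177 and Calml4 with one of 0.00665. Trpv4 and Cab39l missed it with adjusted p of 0.0513 and 0.0619. Spearman's rank correlation of the signals after subtracting group means put these 4 on the other side of the threshold, with adjusted permutation p of 0.0214 for Trpv4, 0.0374 for Cab39l, 0.0537 for Calml4 and 0.132 for Col8a1, so which of these 4 followed Ttr depended on the measure.

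The tracking was also fitted with arrays left out. Leaving out any 1 array left 20 to 23 members called, and 20 members were called in all 24 such fits, Calml4 and Col8a1 in 22 each. The share of all probe sets was not counted in these fits. Without all 4 arrays that lay apart from their groups, which is an alternative chosen after seeing the data, limma called 0 of 32 members and 0% of 16848 probe sets over the other 20 arrays. The smallest member adjusted p there was 0.562. In that fit 31 of 32 slopes were still positive, with a median of 0.17, and 13 had an unadjusted p under 0.05, against 1.75% of all probe sets with a positive slope at that p. The slope of Kl was 0.58 ± 0.12 and that of Otx2 was 0.55 ± 0.15, while that of Kcne2 was 0.04 ± 0.08. With 24 arrays the slope of Kl was 0.81 ± 0.04. The 4 arrays were picked by their Ttr, so leaving them out also narrowed the spread of Ttr within groups. The loss of calls therefore cannot show by itself that the slopes rested on these arrays.

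**Figure D3:**
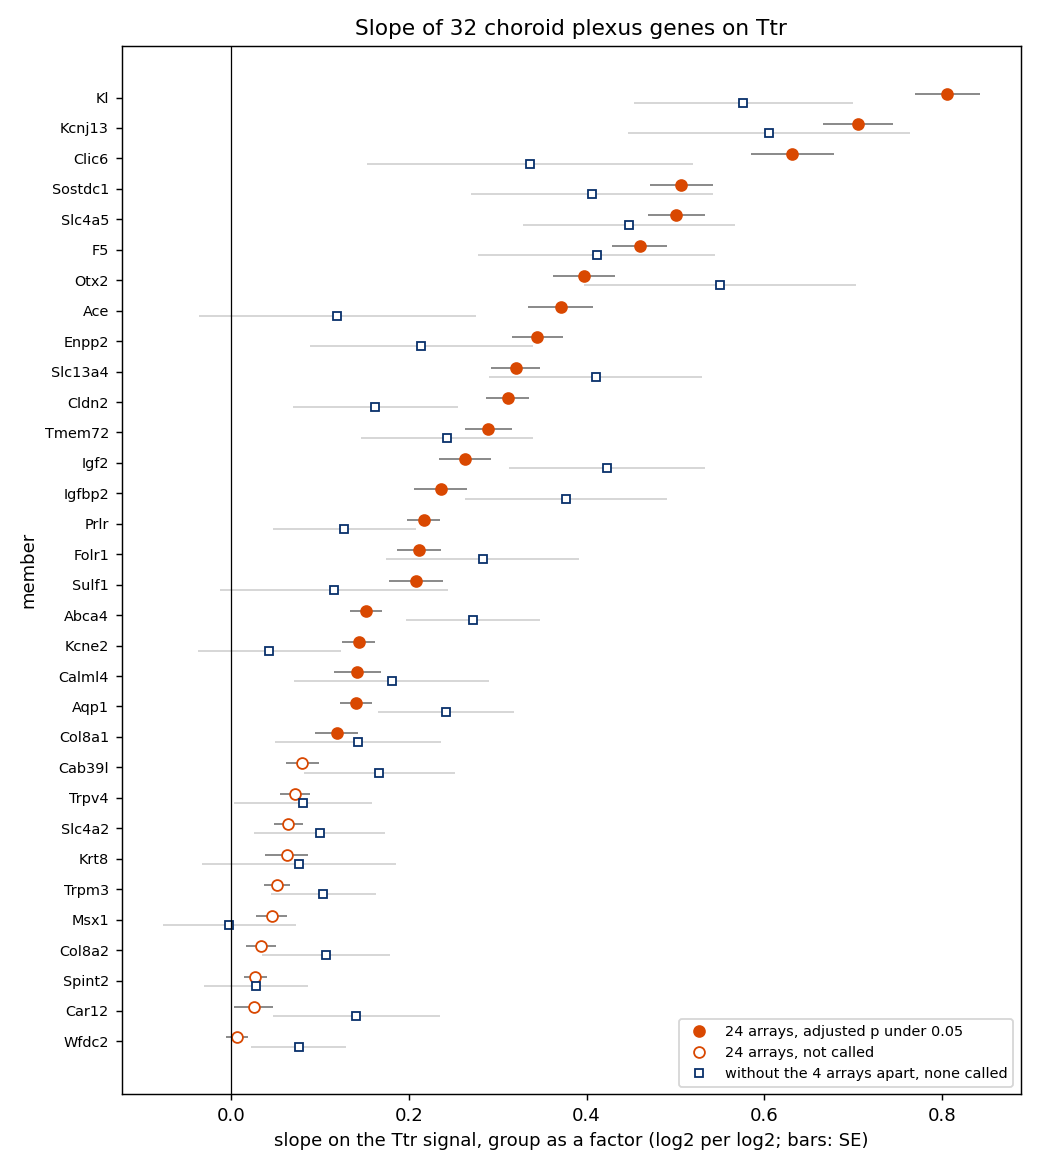
Slope of 32 members on the Ttr signal with group as a factor (log2 per log2, bars are SE), over 24 arrays (circles, filled where the adjusted p is under 0.05) and without the 4 arrays that lay apart from their group (squares). With 24 arrays 22 members are called, and without the 4 arrays none is, although 31 of the 32 slopes stay above 0.

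Because the Ttr signals fell into separate ranges, correlations were taken within the 10 arrays with Ttr above 10 and within the other 14, a limit set after seeing the data. The gap between the ranges was 41.3% of the range of Ttr, less than the size planned for such a split. The planned Pearson's r over all arrays and within each sex is not given. No group term was used here, so differences between groups and sexes enter r and its p. Tests were two-sided permutation tests, adjusted over 16848 probe sets in each set of arrays. Within the 10, Pearson's r with Ttr was positive in 32 of 32 members with a median of 0.79, against -0.02 over all probe sets, 25 members had an unadjusted p under 0.05, against 3.22% of all probe sets, and 0 had an adjusted p under 0.05, against 0%. Igfbp2 had the highest (r = 0.95, permutation p = 4e-05, adjusted p = 0.313, Spearman's rho = 0.95, permutation p = 0.00011), and its r was 0.86 without the 2 arrays farthest from the median of Ttr, female VEH 2 and male VEH 3. Ace fell by that step to 0.29 and Trpm3 to 0.12, against 0.77 and 0.72 with all 10. Leaving out these 2 arrays also narrowed the range of Ttr, which by itself can lower r.

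Within the other 14 arrays r was positive in 22 of 32 members with a median of 0.21, 8 had an unadjusted p under 0.05, against 6.96% of all probe sets, and 0 an adjusted one, against 0%. Kl had the highest (r = 0.77, permutation p = 0.00142, adjusted p = 0.490, Spearman's rho = 0.65, permutation p = 0.0131), which was 0.46 without male CUS-DMF 1 and male CUS-VEH 4, the 2 arrays farthest from the median. Kcnj13 (r = 0.76, permutation p = 0.00156, adjusted p = 0.490, Spearman's rho = 0.85, permutation p = 0.00025) kept an r of 0.71 without them. In these 14 arrays Kcnj13 lay above the 5.91 of the filter only in female VEH 4 (6.03) and male CUS-VEH 4 (6.19), so its r was taken mostly among signals below it. All 14 signals of F5 lay below 5.91, as did those of Cldn2, Prlr and Abca4.

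Genes outside the list with the closest patterns to Ttr after subtracting group means were, in order, Nt5dc2, Mfrp, Mdk, Cfap300, Cdkn1a, Pla2g5, Fmod, Lgals3bp, Cdr2 and Tcn2. Mfrp, a frizzled-related membrane protein, had the steepest slope of the 10 (0.63 ± 0.04, signals 6.27 to 9.96), and Tcn2, a carrier of vitamin B12 named in the list of other choroid plexus genes, the shallowest (0.09 ± 0.01, signals 8.25 to 8.87). Mdk, the growth factor midkine, had a slope of 0.22 (signals 7.09 to 8.72).

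Other cell types of the region were read from the same slopes, of which 0.475% were called positive over all probe sets. Of 34 other choroid plexus epithelium genes that passed the filter, 5 had a called positive slope (Tcn2, Stra6, Cgnl1, Cldn1 and Car14). Most genes of that list were thus not called, and its median slope was 0.03, against 0.21 over the members. Of 24 meningeal fibroblast and stromal genes 3 had one, Fmod (0.22), Ptgds (0.18) and Ogn (0.29), and the mean of that list was 6.96 to 7.28 in female CUS-DMF, 6.95 to 7.27 in female CUS-VEH, 7.15 to 7.38 in female VEH, 7.0 to 7.08 in male CUS-DMF, 6.97 to 7.48 in male CUS-VEH and 6.97 to 7.14 in male VEH rats. Its part in the slopes of the members was not tested. None of 19 ependymal and motile cilium genes, 24 endothelial and mural cell genes, 18 thalamus and habenula genes or 2 blood cell genes had a called slope. The genes of these lists most like Ttr had slopes of 0.03 for Tekt4, 0.06 for Vwf, 0.03 for Prkcd and 0.05 for Hbb-b1. Cfap300, named above with a slope of 0.22, is in none of the lists, although its name is like those of Cfap126 and Cfap65 in the cilium list.

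The first question of the design was whether stress changed these genes. In males, CUS-VEH was compared with VEH. Ttr averaged 7.49 ± 0.57 in CUS-VEH males and 8.57 ± 1.57 in VEH males (SD, n = 4 each), a log2 fold change of -1.07 ± 0.99 (SE, limma adjusted p = 0.892; exact two-sided permutation p = 0.2, where 0.0286 is the smallest that 4 arrays against 4 can give). The groups overlapped. Clic6 changed by -0.57 ± 0.66, Kl by -0.54 ± 0.82 and Enpp2 by -0.43 ± 0.37, all with limma adjusted p of 0.879 or more. A gene was counted here as altered when p was under 0.05 before adjustment and the log2 difference was 0.4 or larger, up or down. The size and the p follow the study, which does not say whether its p was adjusted. By that threshold 0 of 33 members were altered, against 0.315% of all probe sets. At an adjusted p under 0.05 limma called 0 members, against 0.0119%, and 0 had an unadjusted p under 0.05, against 6.67%. Groups did not overlap in 0 of 33 members, against 4.18% of all probe sets. The median change was -0.12 over the members and -0.0013 over all probe sets, with 9 members higher and 24 lower.

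This median rested on male VEH 3. It was the array whose removal moved 21 of the 33 members most, and without it the median was 0.03, with 21 members higher and 12 lower, and Ttr changed by -0.29. Kl, at -0.54 with all arrays, was at 0.04 without it, and Clic6, at -0.57, was at -0.14. Over the 8 arrays left out in turn, 19 of 33 members changed sign at least once. Car12 (0.20, from 0.12 to 0.27) and Calml4 (0.26, from 0.20 to 0.34) did not.

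In females, Ttr averaged 10.91 ± 1.86 in CUS-VEH rats and 10.81 ± 2.20 in VEH rats (SD, n = 4 each), a log2 fold change of 0.11 ± 0.99 (SE, limma adjusted p = 0.988; exact two-sided permutation p = 0.857). The other members with the largest changes were Kl (0.23 ± 0.82), Igf2 (-0.23 ± 0.29), Trpv4 (0.20 ± 0.11) and Kcnj13 (0.18 ± 0.72), with limma adjusted p of 0.684 or more. None of the 33 members was altered at the threshold above, against 0.558% of all probe sets, and limma called 0 at an adjusted p under 0.05, against 0.0178%, with 0 at an unadjusted p under 0.05, against 7.73%. Groups did not overlap in 0 of 33, against 3.52%. The median change was 0.0065 over the members and -0.0067 over all probe sets, with 17 members higher and 16 lower.

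Here the direction changed with the array left out. Without female VEH 4 the median was -0.26, with 5 members higher and 28 lower, and Ttr changed by -0.97. Without female CUS-VEH 3 the median was 0.24, with 30 higher and 3 lower, and Ttr changed by 1.03. The median was also raised to 0.18 without female VEH 2 and to 0.05 without female VEH 1, and was -0.15, -0.08 and -0.05 without female CUS-VEH 4, 1 and 2. Of 33 members 26 changed sign in at least 1 of the 8 fits. Trpv4 kept its sign (0.12 to 0.26), as did Car12 (0.12 to 0.24).

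The second question was whether DMF changed these genes in stressed rats. In males, Ttr averaged 6.78 ± 0.46 in CUS-DMF rats and 7.49 ± 0.57 in CUS-VEH rats (SD, n = 4 each), a log2 fold change of -0.71 ± 0.99 (SE, limma adjusted p = 0.924; exact two-sided permutation p = 0.114). Otx2 changed by -0.42 ± 0.43, Enpp2 by -0.41 ± 0.37 and Igf2 by -0.36 ± 0.29, with limma adjusted p of 0.868 or more. None of 33 members was altered at the threshold above, against 0.344% of all probe sets, and limma called 0 members and 0% of all probe sets at an adjusted p under 0.05, with 1 member, Col8a2 (0.24 ± 0.09), at an unadjusted p under 0.05, against 6.61%. The groups did not overlap in 2 of 33 members, Igf2 and Calml4, against 3.73% of all probe sets. Igf2 was at 7.37, 7.33, 7.50 and 7.46 in CUS-DMF males and at 7.53, 7.72, 7.65 and 8.20 in CUS-VEH males. The median change was -0.09 over the members and -0.00034 over all probe sets, with 9 members higher and 24 lower. This was the comparison least moved by 1 array. Left out in turn, the 8 arrays gave medians of -0.12 to -0.06 and Ttr changes of -0.85 to -0.44, and 10 of 33 members changed sign.

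In females, Ttr averaged 10.86 ± 1.98 in CUS-DMF rats and 10.91 ± 1.86 in CUS-VEH rats (SD, n = 4 each), a log2 fold change of -0.05 ± 0.99 (SE, limma adjusted p = 1.00; exact two-sided permutation p = 0.914). Slc4a5 changed by -0.48 ± 0.52, Ace by -0.41 ± 0.41, Kcnj13 by -0.39 ± 0.72 and Slc13a4 by -0.33 ± 0.34, each with a limma adjusted p of 1.00. None of the 33 members was altered at the threshold above, against 0.0772% of all probe sets, and limma called 0 members and 0% of all probe sets at an adjusted p under 0.05, with 1 member, Spint2 (-0.17 ± 0.07), at an unadjusted p under 0.05, against 3.04%. Spint2 was also the 1 of 33 members whose groups did not overlap, against 1.86% of all probe sets. It had 7.16, 7.12, 6.98 and 7.01 in CUS-DMF females and 7.23, 7.22, 7.20 and 7.31 in CUS-VEH females.

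The median change in females given DMF was -0.13 over the members and 0.0024 over all probe sets, with 4 members higher and 29 lower. Without female CUS-VEH 3 the median was -0.32, with 0 members higher and 33 lower. Without female CUS-DMF 3 it was 0.08, with 22 higher and 11 lower, and without female CUS-VEH 4 it was 0.0071, with 17 higher and 16 lower. Kl changed by -0.28 with all arrays, by -1.21 without female CUS-VEH 3 and by 0.48 without female CUS-DMF 3. Of 33 members 23 changed sign at least once. The responses were also compared between the sexes. For the difference of the responses to CUS limma called 0 of 33 members, against 0% of all probe sets, and 0 members had an unadjusted p under 0.05, against 7.11%. For DMF it called 0, against 0%, and 1 (Spint2) had an unadjusted p under 0.05, against 4.66%.

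**Figure D4:**
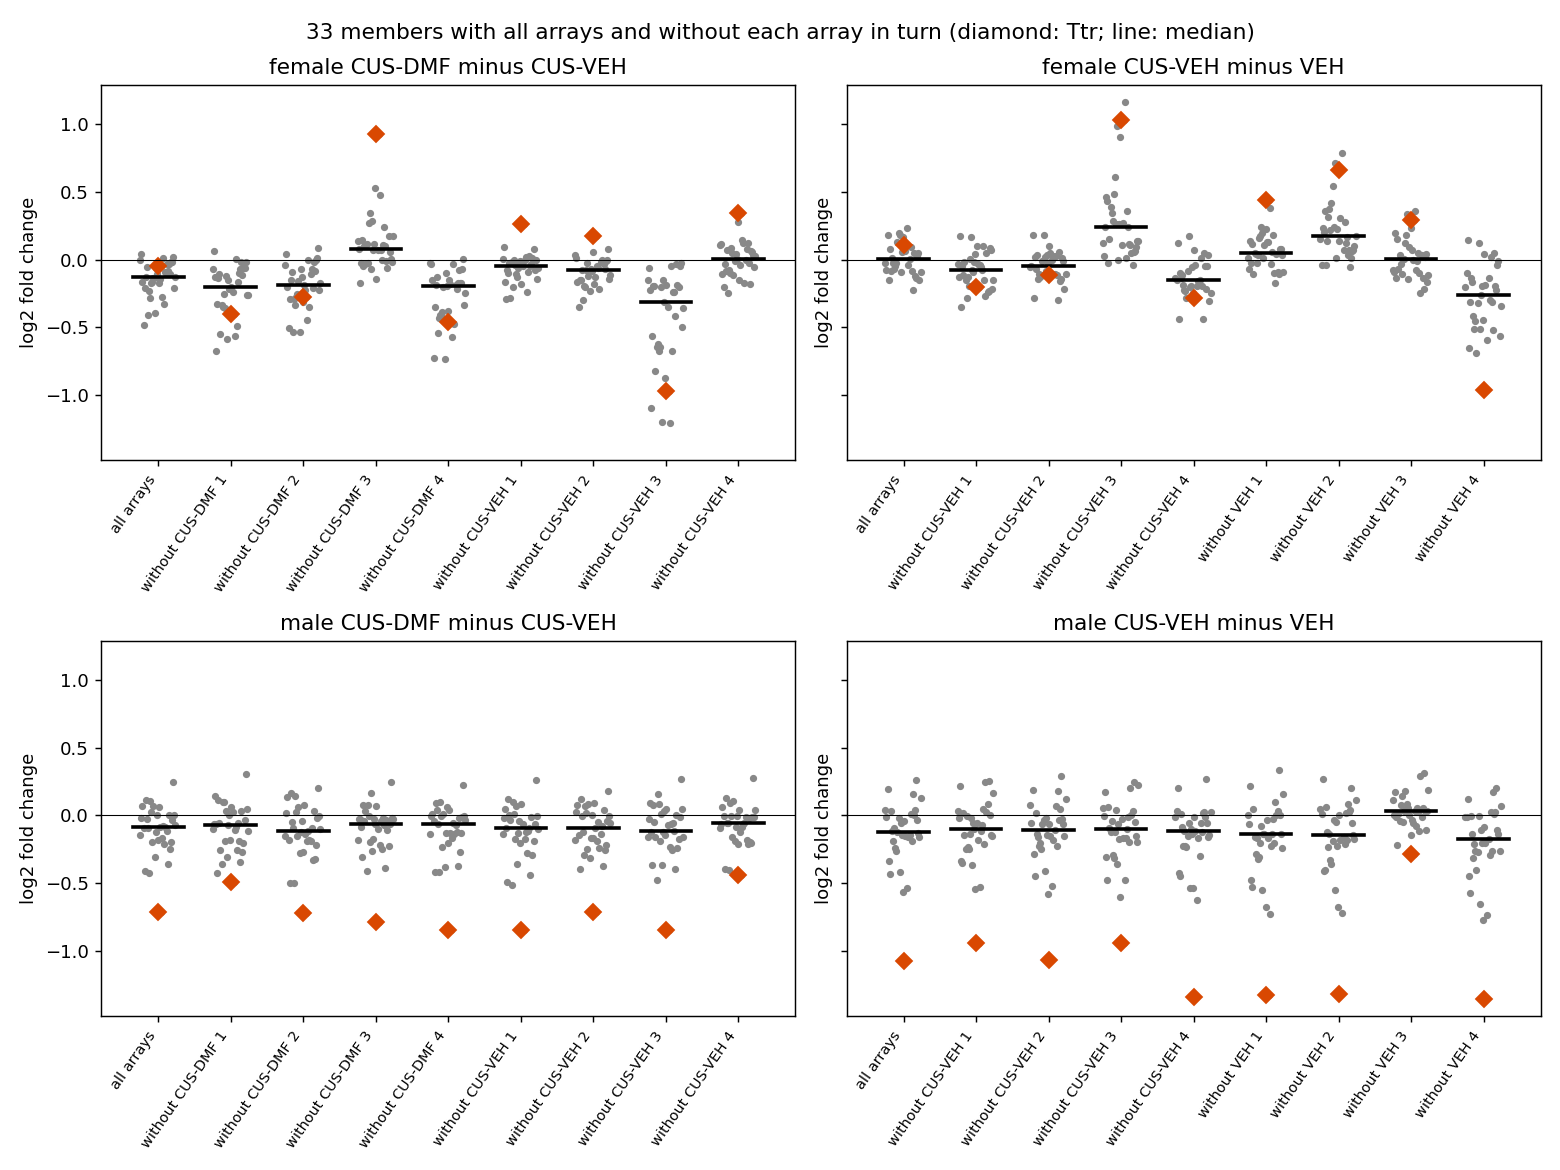
Log2 fold change of the 33 members in each of the 4 comparisons with all arrays and without each of the 8 arrays in turn (grey points are members, the diamond is Ttr, the line is the median). In males CUS-VEH minus VEH moves up without VEH 3, and in females the medians lie on either side of 0 according to which low array is left out.

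The sexes, as labelled, were compared after the arrays had been seen. The difference was the mean of the 3 female minus male differences within a condition, from the same limma fit. Ttr had a median of 11.70 in the 12 female arrays (7.59 to 12.47) and 7.34 in the 12 male arrays (6.13 to 10.93). The difference was 3.25 ± 0.57 (SE, limma adjusted p = 0.0127), 9.50-fold on the linear scale, and the exact two-sided permutation test within conditions gave p = 0.000198 over 343000 assignments. It stayed between 3.06 and 3.61 when any 1 array was left out. The direction rests on the labels of sex, and with these turned the difference would be -3.25, as every sign in the comparison of the sexes would turn. The ranges overlapped, since 9 of the 12 females lay above every male.

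Of the 33 members, 23 were higher in females at an adjusted p under 0.05, against 0.487% of all probe sets (82 of 16849). The filter bears on this count, since Cldn2, F5, Prlr, Col8a1 and Abca4 passed it only through the 3 female groups and all 5 are among the 23. Of the other 28 members 18 were called. With no filter 20 of 36 members were called, these 5 included, and with a filter in all 6 groups 10 of the 21 members it kept were called, against 12 of these 21 with the filter in 3 groups. The share of all probe sets called was not counted with these other filters, so the counts do not show that the result is free of the filter. Kl was higher by 2.42 ± 0.47, Kcnj13 by 2.24 ± 0.42, Clic6 by 1.92 ± 0.38, Slc4a5 by 1.52 ± 0.30, Sostdc1 by 1.5 ± 0.31 and F5 by 1.38 ± 0.28, with limma adjusted p of 0.0132 to 0.0183. F5 is one of the 5 that passed the filter by being high in females, and its limma adjusted p was 0.0336 with no filter. The median difference was 0.70 over the members and -0.0026 over all probe sets. Besides Ttr, 20 of the 22 members that followed it were among the 23. Igf2 (0.58 ± 0.17, limma adjusted p = 0.0945) and Calml4 (0.26 ± 0.11, limma adjusted p = 0.261) followed Ttr and were not called here, and Cab39l (0.32 ± 0.07) and Slc4a2 (0.24 ± 0.06) were called here and not for their slope. Wfdc2 (-0.0023 ± 0.03) and Car12 (-0.05 ± 0.06) were the 2 members that were not higher. Between 17 and 24 members were called when 1 array was left out, with 17 without female CUS-DMF 1. The share of all probe sets was not counted in those fits.

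With Ttr in the model as a covariate, the female minus male difference was called in 0 of 32 members by limma, against 0.0119% of all probe sets, and 1 had an unadjusted p under 0.05, against 6.78%. The median was -0.03, with 11 members higher and 21 lower. Kl had a difference of -0.20 and Kcnj13 one of -0.047 in that fit. Sex and Ttr were closely tied in these arrays, since only 4 of 24 lay on the other side of the gap in Ttr from the rest of their sex. For the other comparisons the covariate left 0 of 32 members called at an adjusted p under 0.05, against 0 to 2 of all probe sets. At an unadjusted p under 0.05 limma then gave 6 members in male CUS-VEH minus VEH and 5 in male CUS-DMF minus CUS-VEH. It gave 1 in female CUS-VEH minus VEH and 5 in female CUS-DMF minus CUS-VEH. The share of all probe sets at that unadjusted p was not counted in these fits. In males CUS-VEH minus VEH then had a median of 0.11, with 28 members higher and 4 lower.

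**Figure D5:**
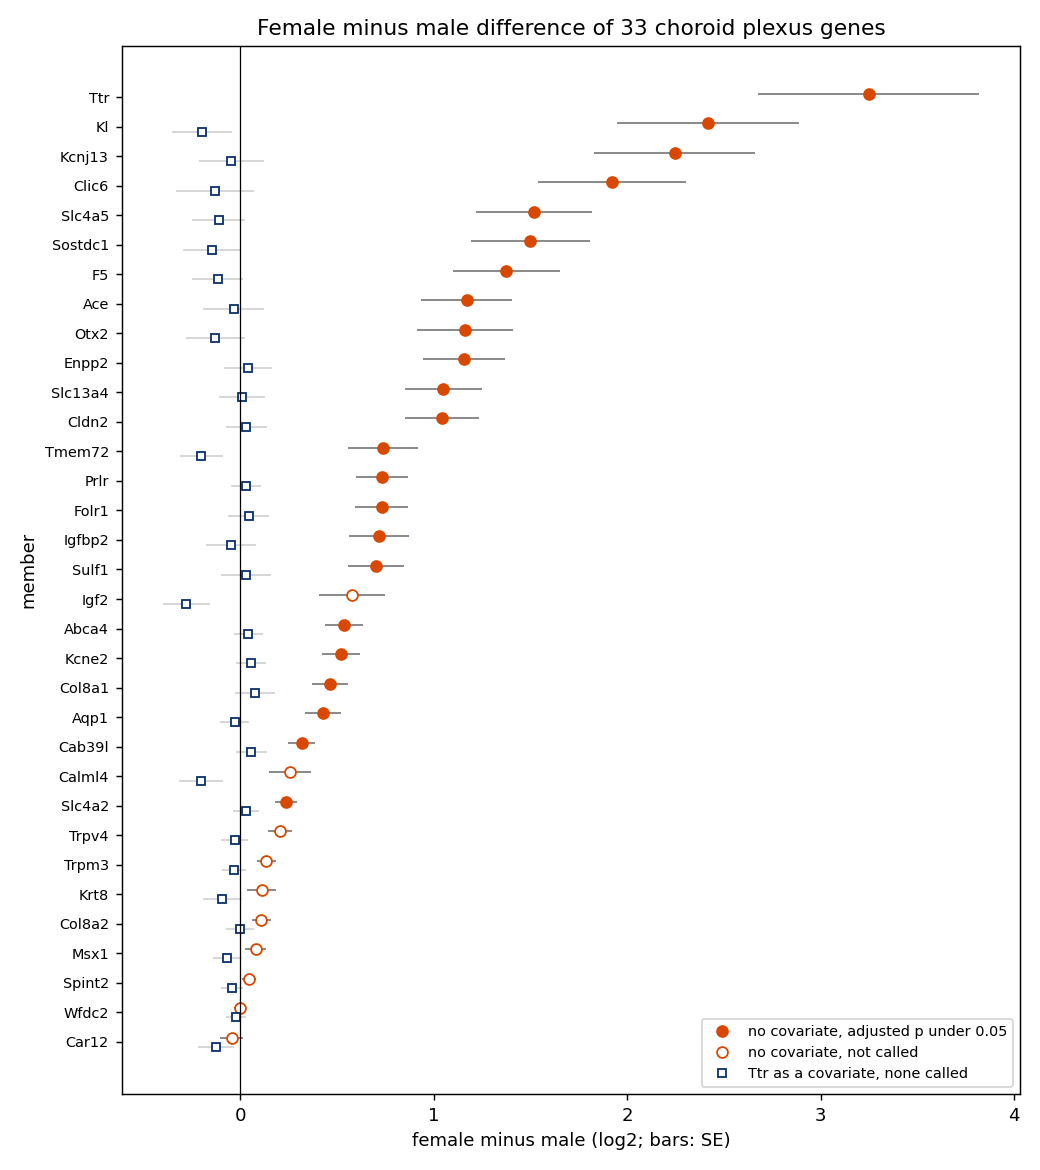
Female minus male difference of the 33 members (log2, bars are SE), without a covariate (circles, filled where the adjusted p is under 0.05) and with the Ttr signal as a covariate (squares, 32 members). Without the covariate 23 members are called, and with it none is, with values on both sides of 0.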

How the data were processed

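Dorsal HIP RNA of 24 rats was hybridised to 24 arrays. The authors made the deposited log2 values in GeneSpring GX with exon expression settings and an annotation on rn4, and normalized them across chips. How probes were summarized is not given in the sources. Per the labels the arrays fall in 6 groups of 4. Probe sets with a group mean above 60 fluorescence units in at least 3 of 6 groups were kept, after the rule in the methods. Group means over all 24 arrays came from 1 linear model (limma 3.58.1, R 4.3.3, lmFit and eBayes). The methods give an analysis within sex with Tukey or Games-Howell tests but no array model, and Tukey's test was tried as an alternative, beside other filters, normalizations, variance settings, array weights, Ttr as a covariate and each array left out. P values were two-sided, with Benjamini-Hochberg adjustment across all kept probe sets. Single genes were also tested by exact permutation over 70 assignments, and correlations by 100000 permutations in Python 3.11.15. Precision is limited by the number of arrays.

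The fits were tested on simulated data. Members and gene lists were chosen with earlier results of these data known, so no list was tested. All members were named by role. Per comparison the members with the largest change were named (up to 4 where fewer than 4 were altered), arrays were listed for Ttr and the 6 steepest slopes, and outside the list the 10 genes most like Ttr and at most 3 per marker list were named. The list of other choroid plexus genes was the exception, as all 5 with a called slope were named, chosen after their values were seen. Igfbp2, Kcnj13, Ace and Trpm3 in the correlations and members named for a sign that did or did not change were chosen after their values were seen. No gene coordinates are given for probe sets, as the annotation and the reference are on different builds.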

Additional observations from a re-analysis of the deposited data

Results flagged for a closer look

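Single arrays far from the other 3 of their group (Dixon's test at 95%) were found for Ttr and for 5 of the 6 genes with the steepest slopes on it. Male VEH 3 was high for Ttr (10.93), Kl (8.32), Clic6 (7.65), Kcnj13 (7.76), Slc4a5 (7.27) and F5 (6.80). Female CUS-VEH 3 was low for Ttr (8.14), Kl (5.98) and F5 (5.78), and female CUS-DMF 3 was low for Ttr (7.92), Kl (6.23) and Clic6 (5.81). Female VEH 4, the low array of its group, did not pass this test for these genes. For a gene taken alone, chance gives such an array in about 5% of groups. Over the 33 members it was found in 24 of 198 cases of a member in a group. It was found 6 times in each of male VEH 3 (high), female CUS-VEH 3 (low) and female CUS-DMF 3 (low). All members were read from the same arrays and many varied together, so the 198 cases are not independent. The 24 cases are therefore not compared with the 5%, and no share over all probe sets is given. Why these arrays lay apart was not tested.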

How the results depend on the processing

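Of 773 values recomputed under other settings, 730 were counted as kept. Gene values had to keep their direction and their side of the threshold, and counts had to stay within 1.5 times. Member medians had only to move by less than the SD of the member mean within groups, whatever their sign. The median of female CUS-VEH minus VEH without female VEH 4 (-0.26, against 0.0065 with all arrays) thus counts as kept. Named genes of the 4 within-sex comparisons were far from the threshold with all arrays, so keeping their side says little. Ttr as a covariate turned Clic6 (0.11) and Kl (0.33) in male CUS-VEH minus VEH, and, for female minus male, Kl (-0.20), Kcnj13 (-0.047), Clic6 (-0.13), Sostdc1 (-0.15), Slc4a5 (-0.11) and F5 (-0.12). With it 2 members passed as altered by CUS in males, 1 by DMF in males and 1 by DMF in females. It left 0 members higher in females, and put the member median of male CUS-DMF minus CUS-VEH at 0.079 over the 32 members other than Ttr. Array weights turned Ttr (-0.23), Kl (-0.10) and Kcnj13 (-0.17) in female CUS-VEH minus VEH. In males, fits of 1 sex gave 1 altered member for CUS and 1 for DMF, and fits of the 2 groups alone gave 1 for CUS and 3 for DMF. Tukey's test within sex gave 0 altered members in each of the 4 comparisons. The share of all probe sets altered was not counted under these other settings, so these counts are not read as a result about the members. A filter in all 6 groups left 10 members higher in females, of the 21 that pass it, and the share of all probe sets was not counted there either. Without the 4 arrays apart from their groups, chosen after seeing the data, 0 members tracked Ttr, in a fit with less spread of Ttr within groups. The cause of the other changes was not tested.

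With 1 array left out, Ttr ran from -0.97 to 1.03 in female CUS-VEH minus VEH and from -0.97 to 0.93 in female CUS-DMF minus CUS-VEH. In the first of these Kl ran from -0.59 to 1.17, Igf2 from -0.52 to 0.10 and Kcnj13 from -0.52 to 0.99, in the second Kcnj13 ran from -1.20 to 0.28, and in male CUS-VEH minus VEH Kl ran from -0.74 to 0.036. Between 0 and 1 members were altered by CUS and between 0 and 3 by DMF in females. For these counts too, the share of all probe sets under the same settings was not counted.

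Deviations of same-numbered arrays of compared groups from their group means had correlations of -0.23 to 0.21. The labels do not say that the numbers pair rats, and these values cannot exclude it. A replicate block gave 22 members tracking Ttr and 21 higher in females, with the share of all probe sets not counted. The mean over several probe sets of a gene was not run, as each member has 1. Signals near the floor of 5.91 limit what can be read for members such as Cldn2, F5 and Prlr in males.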
